A study of Pan troglodytes with 38 samples.

Results

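The natriuretic peptide genes of the heart were followed in RNA-seq data from post-mortem heart tissue of 38 chimpanzees (Pan troglodytes). They are 6 genes of the 31373 in the authors' table of gene counts and were chosen by their function, through their gene symbols. The members are the hormone genes NPPA (ENSPTRG00000000155) and NPPB (ENSPTRG00000000156), the processing protease gene CORIN (ENSPTRG00000016034), and the receptor genes NPR1 (ENSPTRG00000001359), NPR2 (ENSPTRG00000020921) and NPR3 (ENSPTRG00000016773). All 6 were measured in all 38 animals, and all reached a level of 6 CPM, the count of a gene scaled by the library total, in at least 1 animal, as did 13121 genes in total. The GEO labels name a single group, and they do not say which chamber of the heart was sampled. Groups of animals were therefore formed from the sample table of the study: RNA was extracted in the first of a pair of years for 17 animals (earlier RNA) and in the second for 21 (later RNA), and 22 animals were female and 16 male. Of the animals with later RNA, 8 came from the primate center SNPRC and 12 from Yerkes. All of these 8 and no other of the 38 animals carried a note of a virus, so center and virus note cannot be told apart in their comparison. RIN, the integrity number of the RNA, which is low in degraded samples, lay between 2.5 and 8.4, and the age was given for 34 animals, between 10 and 57 years. Beside the note of a virus, the labels and the table name no treatment. The paper states that some of its chimpanzees came from laboratories and had been challenged with the viruses HBV or HCV. The study's sample table marks all libraries with earlier RNA as published before, so extraction year and kind of library cannot be told apart. The animals of the study include relatives. The tests treated all libraries as independent, so p-values measure the spread between these animals and take no account of relatedness. The library titled 554_2 was counted as an animal of its own beside 554, since the labels do not say whether they came from 1 animal.

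NPPA and NPPB encode the precursors of atrial and B-type natriuretic peptide, hormones by which the stretched heart lowers blood pressure and makes the kidney release salt and water. After birth NPPA is mostly a gene of the atria, and ventricles switch NPPA and NPPB on again under load, which is why both serve as markers of cardiac stress. CORIN, a protease in the membrane of cardiomyocytes, cuts the NPPA precursor into the active peptide. NPR1 and NPR2 are receptors that make cyclic GMP (cGMP) when a peptide binds, with NPR2 answering mainly to the C-type peptide of the gene NPPC, and NPR3 removes all of the peptides from the circulation. No sequences are printed, since no sequence table of these genes was used here.

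The lowest of the 38 totals of counts on exons orthologous between human and chimpanzee was 14408012, the median 41226039 and the highest 81603350, and CPM was computed on this total. The 13 mitochondrial genes took between 17.2% and 60.1% of the gene counts (median 30.4%). NPR3 was the member with the fewest reads, with a median of 27.5 counts (counting error 19.1% of the value) and 2 counts in the lowest animal (70.7%). The lowest count of any other member in any animal was 55 (13.5%). In bulk tissue, fewer cells of a type and less RNA per cell cannot be told apart. Animals 537 and Little_R had the lowest means of the cardiomyocyte markers of all animals, and results that rest on them are given without them. Animal 549 stood apart by its chamber markers. The atrial light chain MYL7 was at 12747 CPM in 549 and at no more than 929 CPM in the other 37 animals, and the atrial growth factor BMP10 was at 5920 CPM against a highest value of 1.32 CPM. The ventricular light chains MYL2 and MYL3 were at 315 and 40.9 CPM in 549, below the lowest of the others at 902 and 1979 CPM. Over the whole lists of 17 atrial and 11 ventricular markers, the atrial genes summed to 66609 CPM in 549 and to between 1017 and 25800 CPM in the others, and the ventricular genes to 1236 CPM in 549 and to between 5498 and 87043 CPM in the others.

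NPPA, the hormone gene of the atria, had the widest range of the 6 genes. It was lowest at 1.52 CPM in 4X0095, had a median of 58.1 CPM and was highest at 21020 CPM in 549, a ratio of 13841 between the extremes. The next highest values were 16304 CPM in 4X0354, 12813 CPM in 4x0519 and 3061 CPM in 4X0550. In all, 12 animals lay under 10 CPM and 8 above 1000 CPM. Without 549 the median was 55.6 CPM and the ratio of the extremes 10736. Among the genes outside the mitochondrial genome, NPPA ranked 4 from the top in 549 and 4X0354 and 12765 in 4X0095.

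NPPB, the B-type hormone gene, had a higher median and a lower maximum. It ran from 1.86 CPM in 338 over a median of 326 CPM to 5909 CPM in 4x523, followed by 4x0519 at 4245 CPM, 4x0025 at 3986 CPM and 4X0354 at 3579 CPM. Only 3 animals lay under 10 CPM, and 10 lay above 1000 CPM. Animal 549, the highest for NPPA, held 1488 CPM of NPPB and ranked 9 of 38 for this gene.

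**Figure D1:**
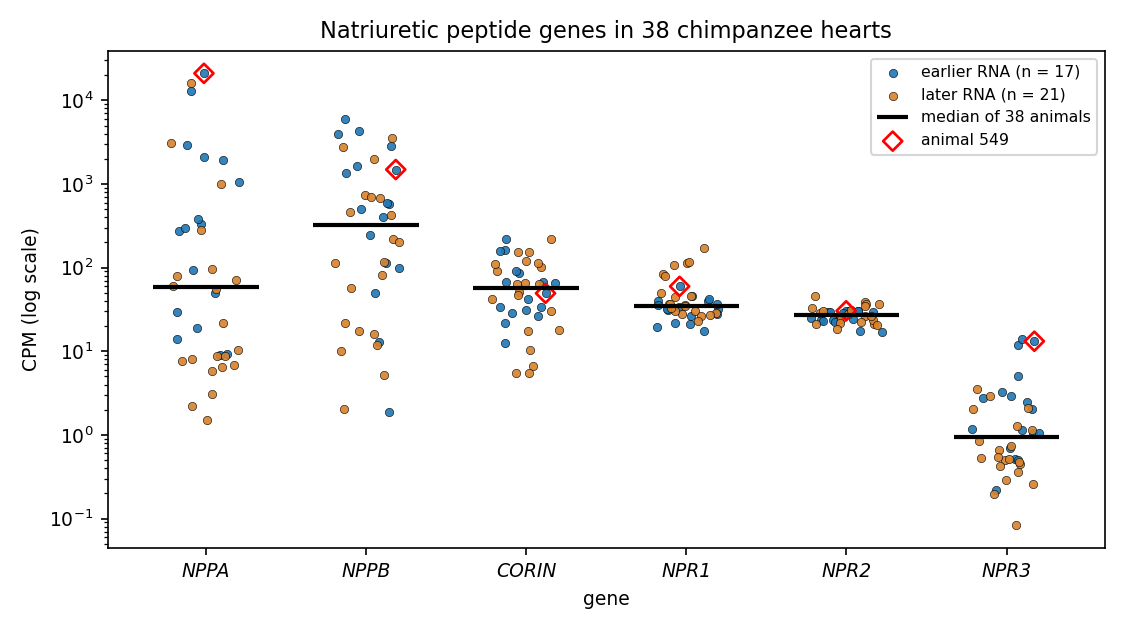
CPM of the 6 genes (x axis) on a log scale (y axis), 1 point per animal, coloured by earlier and later RNA, with a black bar at the median of 38 animals and a red diamond around animal 549. NPPA and NPPB are spread over more than 3 powers of 10, while NPR2 stays between 17.2 and 45.5 CPM.

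The hormone genes were compared with each other per length, from counts on their orthologous exons (RPKM, the CPM on these exons per 1000 bases of them). In Pan_tro_3.0 these exons lie next to each other on the minus strand of chromosome 1, between 11320591 and 11323180 for NPPA (2 blocks, 513 bases) and between 11332353 and 11333819 for NPPB (3 blocks, 693 bases). The median level per length was 44.7 RPKM for NPPA and 473 RPKM for NPPB. The ratio of NPPA to NPPB per length had a median of 0.219, was lowest at 0.0170 in 4X0333 and was highest at 6.96 in 549. NPPA was above NPPB per length in 7 of 38 animals. These exons held a median of 38.7% of the gene count of NPPA, from 30.7% in 338 to 67.1% in 4X0354, and at least 100.4% of that of NPPB. For NPPA the share lay between 30.7% and 39.8% in the earlier RNA and between 37.2% and 67.1% in the later RNA. On the orthologous exons the highest animal for NPPA was 4X0354 at 21316 RPKM, and in the gene counts it was 549.

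The level of NPPA did not follow the markers of the atria over all animals. NPPA and the mean of the atrial markers had Pearson's r = 0.28 and Spearman's rho = -0.07 (permutation test, 100000 permutations, adjusted p = 0.833 for rho, n = 38), and rho was -0.16 without 549. Within the earlier RNA rho was 0.10 and within the later RNA it was -0.55. In 4X0354, the animal next to 549 for NPPA, MYL7 was at 66.6 CPM and MYL2 at 6539 CPM, and BMP10 had no reads. In 4x0519, the next animal, MYL7 was at 103 CPM and MYL2 at 14468 CPM. Both thus had high NPPA with MYL7 within the range of the other animals.

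**Figure D2:**
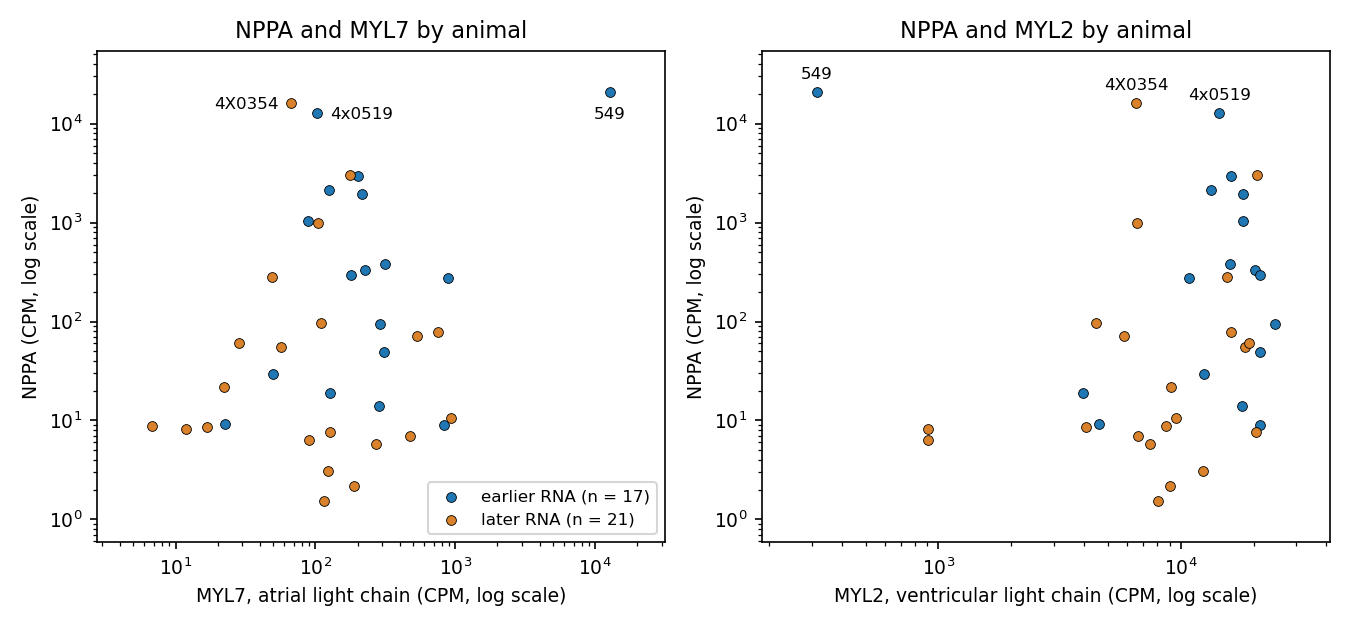
NPPA (y axis, CPM on a log scale) against the atrial light chain MYL7 (left) and the ventricular light chain MYL2 (right), both in CPM on a log scale, 1 point per animal. Animal 549 lies alone at high MYL7 and low MYL2, whereas 4X0354 and 4x0519 have similar NPPA at 66.6 and 103 CPM of MYL7.

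CORIN, the protease that activates the NPPA product, varied less than the hormones. Its level ran from 5.49 CPM in 537 over a median of 57.1 CPM to 222 CPM in 338, with 389 second at 217 CPM. The lowest animals after 537 were Little_R at 5.55 CPM, 4X0354 at 6.76 CPM and 4X0550 at 10.4 CPM. Of these 4 animals, 4X0354 and 4X0550 were among the 4 with the highest NPPA, and 537 and Little_R had the lowest means of the 14 cardiomyocyte markers. Animal 338, the highest for CORIN, had the lowest NPPB of all animals. CORIN overlaps LOC461349 in RefSeq's annotation of another chimpanzee assembly (NHGRI_mPanTro3-v2.0_pri), and the library kit does not mark strand, so reads of overlapping genes may not be told apart.

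NPR1, the receptor for both cardiac hormones, was present in all animals at 17.6 to 173 CPM with a median of 34.95 CPM. The 6 highest animals were 495 at 173 CPM, Little_R at 116 CPM, 537 at 115 CPM, 4X0354 at 108 CPM, 529 at 83.9 CPM and 558 at 78.7 CPM, and all of them had later RNA. NPR2, the receptor for the C-type peptide, had the narrowest range, from 17.2 CPM in 438 over a median of 27.1 CPM to 45.5 CPM in 495. NPR2 overlaps SPAG8 in the same annotation. NPR3, the clearance receptor, was the lowest member and ran from 0.0832 CPM in 4X0339 over a median of 0.947 CPM to 13.99 CPM in 4x0519. It was above 6 CPM in 3 animals only, 4x0519, 549 at 13.2 CPM and 317 at 11.9 CPM, and these were also among the 5 highest animals for NPPA.

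The variability between animals was measured with the study's kind of model, by the overdispersion of a negative binomial model and its residual from the trend on mean expression, called dispersion (natural log scale). The study fitted counts on orthologous exons, and the values here are from the gene counts. The values are a description, with ranks among 13121 genes. NPPA had an overdispersion of 4.22, where the median gene had 0.126, and a dispersion of 3.44 (jackknife SE 0.28), rank 14. NPPB followed at 2.97 (SE 0.30, rank 50), then CORIN at 2.01 (SE 0.15, rank 298), NPR1 at 1.13 (SE 0.27, rank 1467) and NPR3 at 0.80 (SE 0.40, rank 2400). NPR2 was at -0.92 (SE 0.26, rank 10891), below the trend. NPR3, with a median of 0.947 CPM, entered the ranked set only through 4x0519, 549 and 317, all with earlier RNA. It had no dispersion value within the later RNA, nor under a stricter filter that asked its median to reach 6 CPM. Its rank therefore holds for this set of genes only. The order of the members put both hormones on top and the C-type receptor last. The ranges of 1 SE around NPPA and NPPB overlapped, as did those around NPR1 and NPR3. Leaving out each animal in turn moved NPPA between 3.39 and 3.65 and NPPB between 2.90 and 3.19, and without 549 the dispersion of NPPA was 3.45. From counts on orthologous exons NPPA had 3.67 (rank 7 of 12925) and NPPB 3.04 (rank 35).

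Other genes of the pathway and of cardiac stress were less variable than the hormones. Of 17 genes on a list of cardiac stress genes, which holds NPPA and NPPB, 14 had a dispersion above 0, and the median was 1.46, where 44.4% of all 13121 genes were above 0 and their median was -0.13. The next after the hormones were the matrix protein gene TNC at 2.80 and the muscle ankyrin repeat gene ANKRD2 at 2.42. Of 11 genes that break down cGMP or act downstream of it, 9 were above 0, led by PDE3A, a phosphodiesterase, at 1.79. Of 24 transcription regulators of the cardiac genes, 10 were above 0, with a median of -0.07, close to all genes, and from -1.07 for MEF2D to 1.84 for NFATC4. NPPC, the C-type hormone, was at 1.75.

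NPPA, NPPB and NPR3 rose and fell together across the animals. NPPA and NPPB had r = 0.81 and rho = 0.83 (permutation test, 100000 permutations, adjusted p = 7.5e-05 over 15 pairs, n = 38). Without the 2 animals farthest from the median of NPPA, 4X0354 and 549, r was 0.81. The rank correlation was 0.73 within the animals with earlier RNA and 0.84 within those with later RNA. NPPA and NPR3 had r = 0.76 and rho = 0.75 (permutation test, adjusted p = 7.5e-05, n = 38), r = 0.77 without the same 2 animals, and rho = 0.87 within the earlier RNA and 0.56 within the later RNA. NPPB and NPR3 had r = 0.53 and rho = 0.57 (permutation test, adjusted p = 0.00085 for rho), with r = 0.54 without 503 and 338. Within the earlier RNA this last relation had rho = 0.47 and no longer passed (permutation test, adjusted p = 0.270), and it had rho = 0.62 within the later RNA.

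CORIN was lower where NPPB was higher, while over all animals its relations with NPPA and NPR3 did not pass. CORIN and NPR3 had rho = -0.11 (permutation test, adjusted p = 0.75). NPPB and CORIN had r = -0.50 and rho = -0.50 (permutation test, adjusted p = 0.0063 for rho, n = 38), and r was -0.43 without 503 and 338. Within the later RNA rho was -0.66 and within the earlier RNA it was -0.21, where it did not pass (permutation test, adjusted p = 0.562). NPPA and CORIN had rho = -0.32 and did not pass (permutation test, adjusted p = 0.0953). Within the later RNA this pair had rho = -0.55 and passed (permutation test, adjusted p = 0.0345), and within the earlier RNA rho was -0.02. By rho, 4 of the 15 pairs passed, and by Pearson's r 7 did. The 3 pairs added by r were CORIN with NPR1 (r = -0.52), CORIN with NPR2 (r = -0.37) and NPR1 with NPR2 (r = 0.40). Without the 2 farthest animals, which were Little_R with 537 or with 495, r fell in size to -0.35, -0.24 and 0.18. On residuals from extraction year, sex and RIN, the first and the last of them passed by rho, at -0.42 and 0.38 (permutation tests, adjusted p = 0.0291 and 0.0455). The hormone receptors NPR1 and NPR2 had rho = -0.01 and -0.04 with NPPA, and neither passed.

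**Figure D3:**
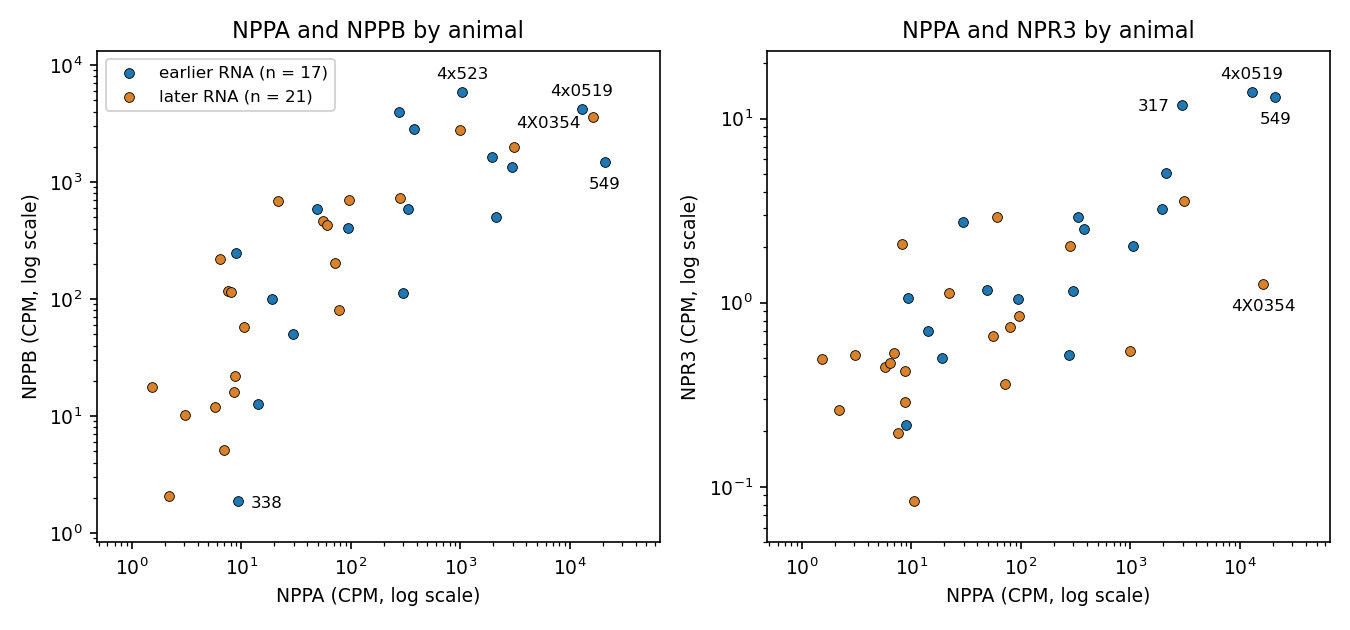
NPPB (left) and NPR3 (right) against NPPA, all in CPM on log scales, 1 point per animal coloured by earlier and later RNA. Both rise with NPPA over both colours, with 4X0354 low for NPR3 at its NPPA level.

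The genes most like each member over the 38 animals were searched among 12048 genes with a symbol, and they are a description without a test. For NPPA these were ETV1 (rho = 0.83), an ETS family transcription factor, NPPB, STMN1 (0.80), a tubulin-binding protein, CYP2J2 (0.74), an arachidonic acid epoxygenase, and LAMC3 (0.73), a laminin chain. For NPPB they were NPPA, CYP2J2 (0.79), IGFBP2 (0.79), a binding protein of insulin-like growth factors, ETV1 (0.77) and LAMC3 (0.76). For NPR3 they were ETV1 (0.83), CCN2 (0.75), a connective tissue growth factor on the stress list, NPPA, the mitotic kinase BUB1 (0.74) and the tyrosine kinase BMX (0.70). ETV1 was thus on all 3 lists, with levels between 6.53 and 59.7 CPM. These 3 members rose and fell together, so their lists are not separate observations. CORIN had other neighbours, led by PPP1R12B (rho = 0.78), a myosin phosphatase subunit, and followed by AQP4 (0.76), a water channel, ME3 (0.74), the mitochondrial malic enzyme, SEC14L5 (0.73) and MLF1 (0.71). NPR1 was nearest to PRR5 (0.88), MAGED4 (0.88), GDPD5 (0.87), RCE1 (0.87) and SMG9 (0.86). NPR2 was nearest to CIZ1 (0.85), CC2D1A (0.82), FZD8 (0.79), PRR12 (0.78) and ZNF384 (0.78). Some of these neighbours had low levels, with medians of 1.56 CPM for BUB1, 2.65 CPM for PRR5, 2.86 CPM for MAGED4 and 3.24 CPM for LAMC3.

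Each member was then set beside lists of cell type markers, cardiac stress genes, the mitochondrial share, the total count and RIN, with the members left out of the lists. Of 114 relations, 18 passed by rho. Libraries share their total count, so a marker list that takes more of a library leaves less for other genes. NPPB went with the stress genes at r = 0.71 and rho = 0.73 (permutation test, adjusted p = 0.00057, n = 38), with r = 0.66 without 503 and 338, and rho was 0.73 within the earlier RNA and 0.62 within the later RNA. NPPA went with them at r = 0.54 and rho = 0.59 (permutation test, adjusted p = 0.00228), r = 0.64 without 4X0354 and 549, with rho = 0.60 within the later RNA and 0.26 within the earlier RNA, where it did not pass. The stress genes were highest in 4x0025 and 4x523, which ranked 3 and 1 for NPPB. Animal 549 was at rank 28 of 38 for the stress genes. This list shares MYH7 with the ventricular list, and MYH7 was at 652 CPM in 549 against at least 2232 CPM in the others. The stress gene ANKRD1 was at 10242 CPM in 549, where the median of the others was 3803 CPM. The part of the ventricular genes in this rank was not tested.

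NPR3, NPPB and NPPA also went with markers of the endocardium, the inner lining of the heart. For NPR3, r was 0.71 and rho 0.64 (permutation test, adjusted p = 0.000912), and the 3 animals with the highest NPR3 were also the 3 with the highest endocardial mean. Without 549 and 4x0519, r was 0.59, and rho was 0.73 within the earlier RNA and 0.63 within the later RNA. For NPPB rho was 0.56 (r = 0.53; permutation test, adjusted p = 0.00418) and for NPPA 0.51 (r = 0.62; permutation test, adjusted p = 0.00920), with rho = 0.45 and 0.24 within the later RNA, where neither passed. Within the earlier RNA rho was 0.61 for NPPB, which did not pass, and 0.82 for NPPA. The endocardial list summed to between 13.2 and 234 CPM, against 1082 to 5781 CPM for the endothelial list, and 8 of its 10 genes reached 6 CPM in at least 1 animal.

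NPR1 had the most relations, with 8 of the 18. It was higher where the ventricular markers (r = -0.70, rho = -0.70) and cardiomyocyte markers (r = -0.77, rho = -0.68) were lower and where the endothelial markers (r = 0.81, rho = 0.59) were higher (permutation tests, adjusted p = 0.00057, 0.00076 and 0.00212 for rho, n = 38). Without 495 and Little_R, r was -0.61, -0.69 and 0.74 for these lists. Within the earlier RNA, rho was -0.70, -0.46 and 0.48, of which the last 2 did not pass. The mesothelial (rho = 0.59, r = 0.59) and fibroblast lists (rho = 0.55, r = 0.58) also rose with it but did not pass within the earlier RNA (rho = 0.51 and 0.55), and the log2 total count fell with it (rho = -0.50, r = -0.71; permutation test, adjusted p = 0.0142), with rho = -0.09 within the earlier RNA. Without 537 and Little_R the relation with the total count had rho = -0.41 and did not pass (permutation test, adjusted p = 0.0810). The endocardial list (rho = 0.43, r = 0.43) and the T and NK cell list (rho = 0.47, r = 0.35) passed as well, but neither passed with TMM scaling or within the earlier RNA. The endocardial relation also did not pass with a pseudocount of 0.1, with the total of nuclear genes, without 549, or without 537 and Little_R, with rho between 0.33 and 0.43 over these alternatives, and the T and NK cell relation did not pass within the later RNA (rho = 0.37). Of the 6 animals highest for NPR1, 5 were the 5 highest for the endothelial mean, and 529 ranked 14. NPR2 fell with the cardiomyocyte markers (r = -0.57, rho = -0.67; permutation test, adjusted p = 0.000855), but with TMM scaling rho was -0.40 and did not pass (permutation test, adjusted p = 0.0738). CORIN rose with the ventricular (r = 0.50, rho = 0.51) and cardiomyocyte markers (r = 0.57, rho = 0.44). Without 537 and Little_R these fell to rho = 0.44 and 0.34 and no longer passed (permutation tests, adjusted p = 0.0510 and 0.184), and neither passed within the earlier or the later RNA alone. The fibroblast markers rose with NPPB (rho = 0.53, r = 0.46) and with NPR3 (rho = 0.52, r = 0.44). The first did not pass within the later RNA (rho = 0.29), and the second did not pass within the earlier RNA (rho = 0.53) or on residuals from extraction year, sex and RIN (rho = 0.36). No member passed with RIN or the mitochondrial share over all animals. The 6 animals highest for NPR1 nevertheless had high mitochondrial shares, led by 537 at 60.1%, 558 at 53.9% and 529 at 52.7%. All 6 lay above every other animal except 4X0339, which had 51.7% and 46.1 CPM of NPR1. The part of this share in their NPR1 levels was not tested.

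**Figure D4:**
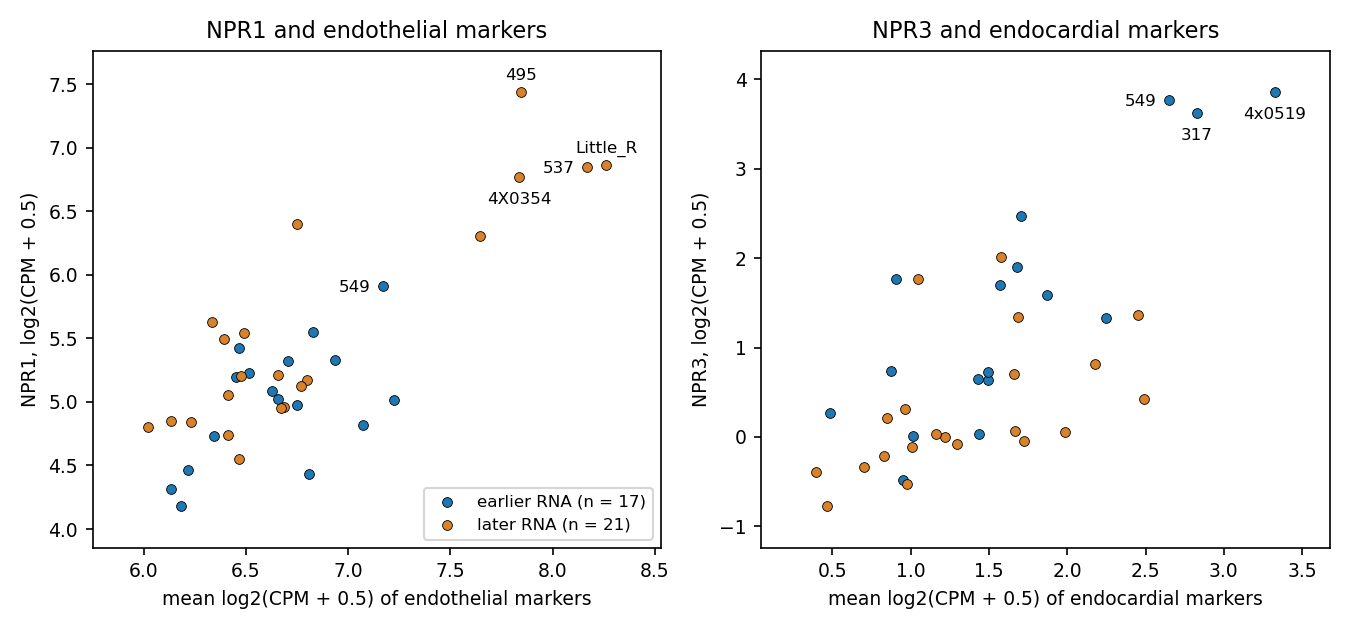
NPR1 against the mean of 11 endothelial markers (left) and NPR3 against the mean of 10 endocardial markers (right), all as log2(CPM + 0.5), 1 point per animal. The 5 animals highest for the endothelial mean lie among the 6 highest for NPR1, and 4x0519, 549 and 317 are highest on both axes of the right panel.

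The later RNA was compared with the earlier RNA to see whether the members moved with extraction year (edgeR, quasi-likelihood test over 16000 genes, sex as a covariate). All animals with a virus note had later RNA, and the animals from New Iberia and MD Anderson had earlier RNA. Over all animals, extraction year can therefore not be fully told apart from virus note and center. Of all genes tested, 16.5% passed an adjusted p of 0.05, with 1959 higher and 687 lower in the later RNA, and 2 of the 6 members did. NPR3, the clearance receptor, ran from 0.217 CPM over a median of 2.02 CPM to 13.99 CPM in the earlier RNA and from 0.0832 over 0.536 to 3.55 CPM in the later RNA. The groups overlapped, with 13 of 17 animals with earlier RNA and 6 of 21 with later RNA above the median of all animals. It fell by 1.67 on the log2 scale (SE 0.47, adjusted p = 0.0119) and passed in each of 38 fits that left out 1 animal. It also passed within the Yerkes animals, where it fell by 2.55 (adjusted p = 0.0373). Beside it, the endocardial list summed to between 14.5 and 234 CPM in the earlier RNA and between 13.2 and 207 CPM in the later RNA, with 1 of 9 genes passing (LEPR, lower), and the macrophage list to between 83.7 and 832 CPM and between 34.1 and 430 CPM, with 5 of 8 passing, all lower. Their part in the NPR3 result was not tested.

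NPR1 ran from 17.6 over a median of 32.1 to 59.7 CPM in the earlier RNA and from 22.9 over 36.3 to 173 CPM in the later RNA. The medians were close, and the groups differed mainly in the 6 highest animals. Its log2 fold change was 0.65 (SE 0.20, adjusted p = 0.0180). Without 537 and Little_R it was 0.50 (adjusted p = 0.0602) and within the Yerkes animals 0.59 (adjusted p = 0.254), so the call was lost in both. Beside it, the endothelial list summed to between 1254 and 3086 CPM in the earlier RNA and between 1082 and 5781 CPM in the later RNA with 1 of 11 genes passing (EGFL7, higher), and the cardiomyocyte list to between 59957 and 123326 CPM and between 15483 and 123683 CPM with none of 14 passing. No gene of these lists was at 0 in all animals of a year. Their part in the NPR1 result was not tested.

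The other members did not pass between the years. NPPA had a median of 297 CPM in the earlier RNA (8.91 to 21020) and of 10.5 CPM in the later RNA (1.52 to 16304), a log2 fold change of -1.54 with a 95% interval from -3.46 to 0.37 (adjusted p = 0.269). The share of its gene count on orthologous exons reached 39.8% in the earlier and 67.1% in the later RNA. The part of this share in the fold change was not tested. NPPB had a median of 583 CPM in the earlier RNA (1.86 to 5909) and of 116 CPM in the later RNA (2.06 to 3579), a log2 fold change of -1.25 with an interval from -2.82 to 0.31 (adjusted p = 0.270). CORIN had a log2 fold change of 0.01 (interval -0.85 to 0.86), whose sign changed with the scaling, and NPR2 of 0.09 (interval -0.08 to 0.26). The intervals of the hormone genes allow differences of more than 2 on the log2 scale, while that of NPR2 does not reach 0.30.

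Of 48 further genes of the pathway that were tested, 12 passed between the years beside 16.5% of all genes, 8 higher and 4 lower in the later RNA, with a median log2 fold change of -0.08 where that of all genes tested was 0.02. Higher were the hormone gene NPPC (log2 fold change 1.76, adjusted p = 0.0373), the plasma kallikrein gene KLKB1 (1.78), the cGMP phosphodiesterases PDE2A (0.87) and PDE9A (0.57), the nitric oxide receptor subunit GUCY1A2 (0.85), and the regulators TBX2 (0.74), NFATC4 (1.41) and HDAC4 (0.39). Lower were the peptidase NLN (-0.62), the cGMP-dependent kinases PRKG1 (-0.34) and PRKG2 (-2.38), and REST (-0.37, adjusted p = 0.000180), a repressor that acts on NPPA and NPPB. Within the Yerkes animals 1 of 49 passed, REST, beside 1.64% of all genes, and without 537 and Little_R 8 of 48 did, beside 13.4%. These 8 include GUCY2C, which is not among the 12. NPPC did not pass without 549 or without 537 and Little_R. Without 549 PRKG1 was lost too, and without 537 and Little_R so were NLN, PDE9A, GUCY1A2 and TBX2. KLKB1, PDE2A, NFATC4, HDAC4, PRKG2 and REST passed in both settings, but KLKB1 reached 6 CPM in no animal. Of the 17 stress genes, 2 passed, a smaller share than the 16.5% of all genes, ANKRD1 (-1.09) and TNC (-1.98), both lower in the later RNA. ANKRD1 did not pass without 549 or without 537 and Little_R, TNC did not pass with DESeq2, without TMM or among genes at 6 CPM, and none of the 17 passed within the Yerkes animals. Of the 17 atrial markers, 7 were lower in the later RNA, and without 549, whose RNA was earlier, 2 were, BMP10 and SLN. Outside 549 BMP10 was at no more than 1.32 CPM and SLN at no more than 5.88 CPM, so these 2 calls rest on few reads.

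**Figure D5:**
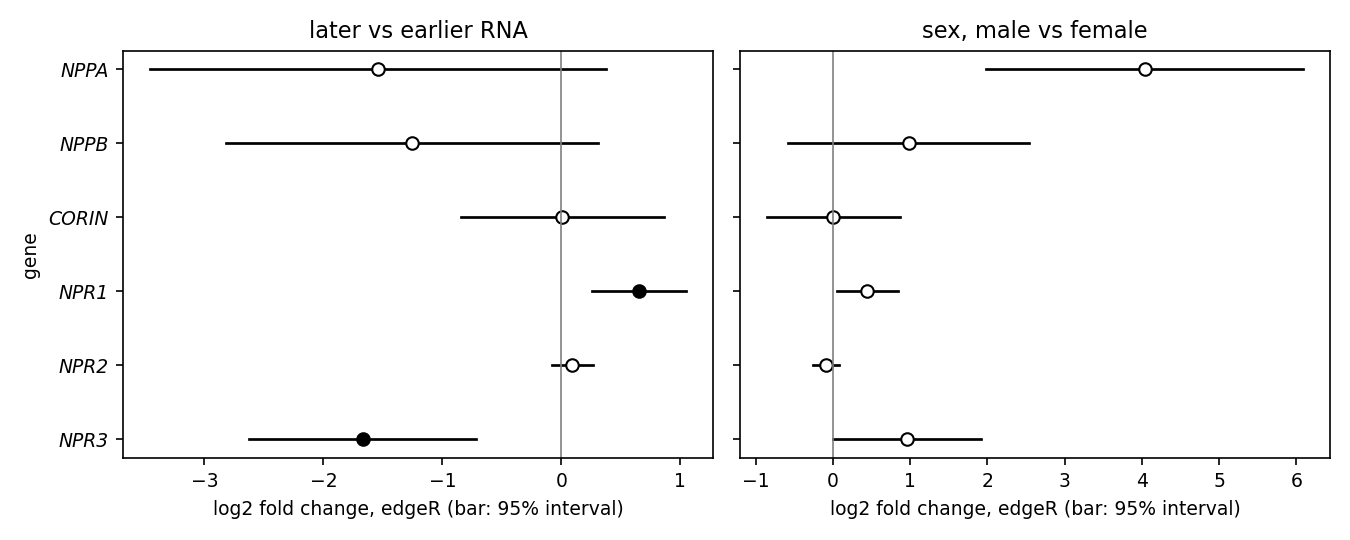
Log2 fold change (x axis) of each member (y axis) for later against earlier RNA (left) and for males against females (right) from edgeR, with 95% intervals as bars and filled points where the adjusted p was under 0.05. NPR1 and NPR3 are filled on the left, and NPPA has the largest value on the right, 4.03, without passing.

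Males were compared with females in the same fit. Of all genes, 0.231% passed, and none of the 6 members did (edgeR), while DESeq2 called NPPA. An unadjusted p under 0.05 in edgeR was reached by 3 of the 6 members, beside 1361 of all 16000 genes. NPPA ran from 1.52 over a median of 38.7 to 2117 CPM in the 22 females and from 2.19 over 87.8 to 21020 CPM in the 16 males. Both sexes reached down to the lowest levels, but 7 of 16 males and 1 of 22 females lay above 1000 CPM. The log2 fold change was 4.03 (SE 1.01, 95% interval 1.98 to 6.09, adjusted p = 0.0924), which compares mean counts, while the mean of log2(CPM + 0.5) was 5.52 ± 2.78 (SD, n = 22) in females and 7.67 ± 4.55 (SD, n = 16) in males. Over 10 alternatives and 38 fits that left out 1 animal, the value stayed positive, from 2.91 without 4X0354 to 4.75 without 558. DESeq2 gave an adjusted p of 0.00102, leaving out 462 or 558, females with high NPPA, gave adjusted p = 0.0430 and 0.0286 in edgeR, and without 549 the value was 3.70 with adjusted p = 0.247. The value was 3.89 within the earlier RNA and 4.11 within the later RNA, and neither passed (adjusted p = 0.258 and 0.875). NPR1 (0.44, adjusted p = 0.508) and NPR3 (0.96, adjusted p = 0.584) had an unadjusted p under 0.05 only, and NPPB had a log2 fold change of 0.98 (interval -0.58 to 2.54). Of the 48 pathway genes none passed, and of the atrial markers BMP10 and KCNJ3 did, both higher in males. The atrial list summed to between 1545 and 25800 CPM in females and between 1017 and 66609 CPM in males. Without 549, a male, none of its genes passed, and their part in the NPPA value was not tested.

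RNA quality, age and primate center were tested last. For each of these 3 comparisons 0% of all genes passed in edgeR, with 2306, 1222 and 440 genes at an unadjusted p under 0.05, and no member did. DESeq2 called 175, 3 and 4 genes. Per unit of RIN, the log2 fold changes of the members lay between -0.10 for CORIN and 0.27 for NPR3 (95% interval -0.05 to 0.59). Per 10 years of age, CORIN had 0.41 (interval 0.08 to 0.75, adjusted p = 0.657) and NPR2 -0.08 (interval -0.15 to -0.02, adjusted p = 0.657), and NPPA had -0.74 with an interval from -2.19 to 0.72. Within the later RNA, NPPA had a median of 38.7 CPM (1.52 to 16304) in the 8 SNPRC animals and of 8.71 CPM (2.19 to 986) in the 12 Yerkes animals. The log2 fold change of 4.00 had an interval from -1.61 to 9.61, which spans differences of either sign. NPPB had 1.63 (interval -1.03 to 4.28) and NPR3 0.97 (interval -0.20 to 2.13) in the same comparison, and CORIN, NPR1 and NPR2 lay between -0.21 and 0.01.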

How the data were processed

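Gene counts of 31373 genes and counts on orthologous exons are as the authors deposited them, without normalization. Per the methods and processing notes, 75-base single-end reads of poly(A) RNA (TruSeq v2) were aligned with STAR 2.6.1b to Pan_tro_3.0, and orthologous exons were counted with featureCounts 1.6.3. The strand setting of the gene counts is not given in the sources used here. The members and lists were chosen with earlier results of these data known.

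CPM used the orthologous exon total, and log2 values a pseudocount of 0.5. Comparisons used edgeR 4.0.16 over all genes (TMM, filterByExpr, Benjamini-Hochberg), with DESeq2 1.42.0 as an alternative. Correlations used two-sided permutation tests of 100000 permutations, and dispersion a LOESS trend (degree 1, span 0.75). On simulated data for extraction year, edgeR found 146 of the 197 genes simulated with a 2-fold change, beside 4 false calls, over 15941 genes, and overdispersion was recovered with r = 0.97. In all, 52 columns of no sample of the series were not used. Genes named are the members, the pathway and stress genes that passed a test, the 5 genes nearest to each member and the markers of lists described. PDE3A, ANKRD2, NFATC4 and MEF2D were chosen as examples after their values were seen. Tools were R 4.3.3, Python 3.11.15, numpy 2.4.6, pandas 2.3.3, scipy 1.17.1, statsmodels 0.14.6 and matplotlib 3.10.9. The alternatives concerned library size, filters, test, covariates, pseudocount and animals left out.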

Additional observations from a re-analysis of the deposited data

Results flagged for a closer look

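Among the 8 SNPRC animals with later RNA, 4X0354 was far from the others for NPPA, at 16304 CPM where the next animal was at 3061 CPM, and for NPR1, at 108 CPM where the next was at 46.1 CPM. Its gap to the nearest animal was 0.81 and 0.78 of the range of the group, past Dixon's critical value of 0.526, which chance exceeds in about 1 group in 20 where a single ratio of normally distributed values is tested. Here 12 ratios of CPM were computed, for both ends of 6 genes, so chance exceeds it more often. On the log2 scale, the ratio was 0.19 for NPPA, not past the critical value, and 0.64 for NPR1. The other 4 members had no such animal. The sex difference and the slope on RIN did not differ between earlier and later RNA for any member in edgeR (smallest unadjusted p = 0.0207, NPR3 by sex, adjusted p = 0.999).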

How the results depend on the processing

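No paired analysis was possible because the labels give 1 group. Of the 6 members' fold changes, the 2 calls by extraction year were kept in 9 alternatives, except that NPR1 was lost in 2, and NPPA by sex was gained with DESeq2 and in 2 fits with 1 animal left out. Over the alternatives the relations with lists lost their call 29 times, those between members 2 times, while 3 calls of pairs were gained. The depth limits NPR3 most. The causes of the changes below were not tested. Counts of genes called changed as follows. By extraction year, 16.5% of genes tested became 1.64% in Yerkes animals only, and 2646 genes became 2196 to 3070 with 1 animal left out. By sex 37 became 108 with DESeq2, 23 without 549, 24 in the earlier RNA, 20 in the later RNA and 23 to 51 with 1 animal left out. By RIN 0 became 175 with DESeq2, 2 without TMM, 2 without a filter and 13 in the earlier RNA. By age 0 became 3 with DESeq2 and 6 without a filter, and by center 0 became 4 with DESeq2. In the earlier RNA, 2 of 15 pairs and 8 relations with lists passed, and with 1 animal left out 4 to 6 pairs did.

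Signs changed only for values that passed in no setting. By extraction year, CORIN was -0.0012 without TMM, -0.015 without a filter, -0.025 without 549, -0.090 with RIN as covariate, -0.38 in Yerkes animals, and -0.21 to 0.21 with 1 animal left out. By sex, CORIN was -0.026 without TMM, -0.046 in the later RNA and -0.25 to 0.16 with 1 animal left out, NPR2 was 0.019 in the earlier RNA and NPR3 -0.031 in the later RNA. By RIN, NPPB was -0.99 and CORIN 0.12 in the earlier RNA, and NPR1 0.013 in the later RNA. By age, NPPB was 0.14 and NPR3 0.21 in the earlier RNA. By center, CORIN was -0.019 without TMM, -0.0040 without a filter and -0.048 without 537. The rank correlation changed sign for NPPB and NPR2 (-0.020 with nuclear totals, -0.11 with TMM), and for NPPA and NPR1 without 537 and Little_R (0.029). In the earlier RNA it was 0.29 for NPPA and NPR1, 0.21 for NPPA and NPR2, 0.23 for CORIN and NPR3, 0.11 for NPR1 and NPR3 and 0.27 for NPR2 and NPR3. In the later RNA it was 0.086, 0.032, 0.21 and 0.018 for the same pairs without CORIN and NPR3. On residuals from year, sex and RIN it was 0.10, 0.092, 0.086 and 0.24. Of 48 dispersion values, 9 moved by more than the jackknife SE, among them NPR1 to 0.48 and NPR3 to 1.43 in the earlier RNA.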
